A study of Bos taurus with 21 samples.

Results

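The comparison set heifers that stopped ovulating on a restricted diet against heifers that kept ovulating on the same diet, using 14 of the 21 hypothalamus libraries of a Bos taurus mRNA sequencing study. They were chosen by their titles as the 7 libraries labelled Restricted Anovulatory (RA) and the 7 labelled Restricted Ovulatory (RO). Both groups were fed 0.4 Mn, Mn being the labels' unit of estimated energy requirement, for 18 days before slaughter, and they differ by whether ovulation had stopped, so the diet was assigned and the outcome was not. The remaining 7 libraries came from ovulating controls fed 1.2 Mn and serve here for reference levels. The labels give no age, breed or genotype. They number the libraries as replicates without naming the animals, so each p-value reflects variation between these libraries, which may be partly technical.

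The hypothalamus links energy status to reproduction. Its gonadotropin-releasing hormone neurons drive the pituitary release of luteinising hormone that leads to ovulation, and peptide neurons of the arcuate nucleus, together with glia and circulating signals such as leptin and insulin, convey the state of energy reserves to them. In cattle, undernutrition is known to slow luteinising hormone pulses and to stop oestrous cycles in some animals before others.

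Total counts of the 14 libraries ran from 3379050 to 4476586, with 15877 to 16391 genes detected in each. RA libraries held a mean of 4012398 ± 345141 counts and RO libraries 3886529 ± 274200 (SD, n = 7 in both groups). An exact permutation test (two-sided, 3432 arrangements) of that difference gave p = 0.463, where the smallest possible p is 0.000583. Each library correlated with the others of its group at a mean r of 0.957 to 0.974 across tested genes. The tables give genes by Ensembl-style identifier, and 0 of 22984 identifiers could be paired with a symbol in the gene table used here. Genes are therefore described by identifier and without function, and the labelled tissue was not checked against marker genes. The file names carry a date token that stands here for the sequencing run, written as runs A to D in sorted order. Run A held RA replicate 2 and RO replicate 7. Run B held the other 6 RO libraries, run C held RA replicates 1 and 3, and run D held RA replicates 4 to 7. Group and run therefore cannot be told apart in most of the comparison. Among the controls, replicate 5 was in run A, replicate 1 in run B and the other 5 in run C.

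The gene that passed the test, ENSBTAG00000022548, was lower in every RA library than in every RO library. Its level, in CPM (the count scaled to a common library size), had a lowest value of 60.1, a median of 96.7 and a highest value of 122.6 in RA. In RO the lowest, median and highest values were 142.3, 171.0 and 221.2 CPM. The 2 groups thus did not overlap, and the RA library nearest to RO was replicate 3. RA averaged 93.2 ± 19.0 CPM and RO 172.8 ± 27.3 (SD, n = 7 in both groups). The log2 fold change was -0.89 (SE 0.13, 95% interval -1.16 to -0.62, edgeR quasi-likelihood test, adjusted p = 0.0429). RA therefore held 0.539 times the RO level. These values rest on 226 to 460 reads per RA library and 586 to 742 per RO library. In bulk tissue, fewer cells that express a gene and less RNA per cell cannot be told apart.

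The 7 controls measured 112.6 ± 27.3 CPM of ENSBTAG00000022548 (SD, n = 7), between the means of the restricted groups. Their lowest value was 67.5 in replicate 7 and their highest was 141.1 in replicate 1, just under the lowest RO library. In run A, which held 1 library of each group, the gene stood at 99.9 CPM in RA, 159.1 in RO and 135.2 in the control. That is also the order of the group means. RA below RO in run A was given in advance, since the groups did not overlap. Each of these values is 1 library. Within RA, the 4 libraries of run D averaged 83.3 ± 16.8 CPM (SD, n = 4) and the 3 of runs A and C 106.4 ± 14.1 (SD, n = 3). This difference did not pass (log2 fold change -0.35, SE 0.17, edgeR unadjusted p = 0.0625, adjusted p = 0.640). The adjusted p of the RA and RO difference was 0.0859 in an edgeR fit to all 21 libraries. With a covariate for run added to that fit, the log2 fold change was -0.40 (SE 0.26, edgeR adjusted p 0.9998). A covariate for run in the 14 libraries gave a log2 fold change of -0.67 (edgeR adjusted p 0.863), and the group difference of that fit rests on the 2 libraries of run A.

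Of the genes lower in RA, ENSBTAG00000014646 had the second smallest p-value. It ran from 11.2 to 18.9 CPM in RA (median 15.1) and from 22.0 to 35.2 in RO (median 26.1). The groups did not overlap, and RO replicate 7 of run A was the RO library nearest to RA. The log2 fold change was -0.82 (SE 0.14), and it did not pass at an edgeR adjusted p of 0.0879. The control of run B stood at 28.3 CPM, inside the RO range, whereas the 5 controls of run C averaged 15.7 ± 5.52 CPM (SD, n = 5). Of those 5, control replicate 3 reached 23.6 CPM, also inside the RO range, and the others lay between 8.003 and 16.2. In run A alone the RA library stood at 16.5 CPM, the RO library at 22.0 and the control at 18.2.

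On the higher side, ENSBTAG00000014912 ran from 50.1 to 100.4 CPM in RA (median 67.3) and from 35.9 to 49.5 in RO (median 43.8). RA replicate 3 lay just above the highest RO library, and RA replicate 1 was the highest of all 14. The log2 fold change of 0.75 (SE 0.14) did not pass at an edgeR adjusted p of 0.0879. Of the controls, 6 lay between 57.0 and 92.3 CPM, above every RO library. The other control, replicate 1 of run B, stood at 40.4 CPM, inside the RO range. In run A the RA library had 85.5 CPM, the RO library 40.6 and the control 79.6.

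ENSBTAG00000011127, the second on the higher side, had the smallest fold change of the 4 genes and the narrowest spread within groups relative to its mean. It ran from 82.1 to 104.5 CPM in RA (median 89.7) and from 64.9 to 75.9 in RO (median 74.6), without overlap. The log2 fold change was 0.35 (SE 0.067), and it did not pass at an edgeR adjusted p of 0.0879. Controls ran from 63.2 to 106.5 CPM and so covered the ranges of both restricted groups. The control of run B, at 79.8 CPM, lay above every RO library and below every RA library. In run A the control had 106.5 CPM, above the RA library at 96.4 and the RO library at 75.9, which differs from the order of the group means. All 4 genes were picked as those with the smallest p-values on these libraries, so their lack of overlap is a description.

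**Figure D1:**
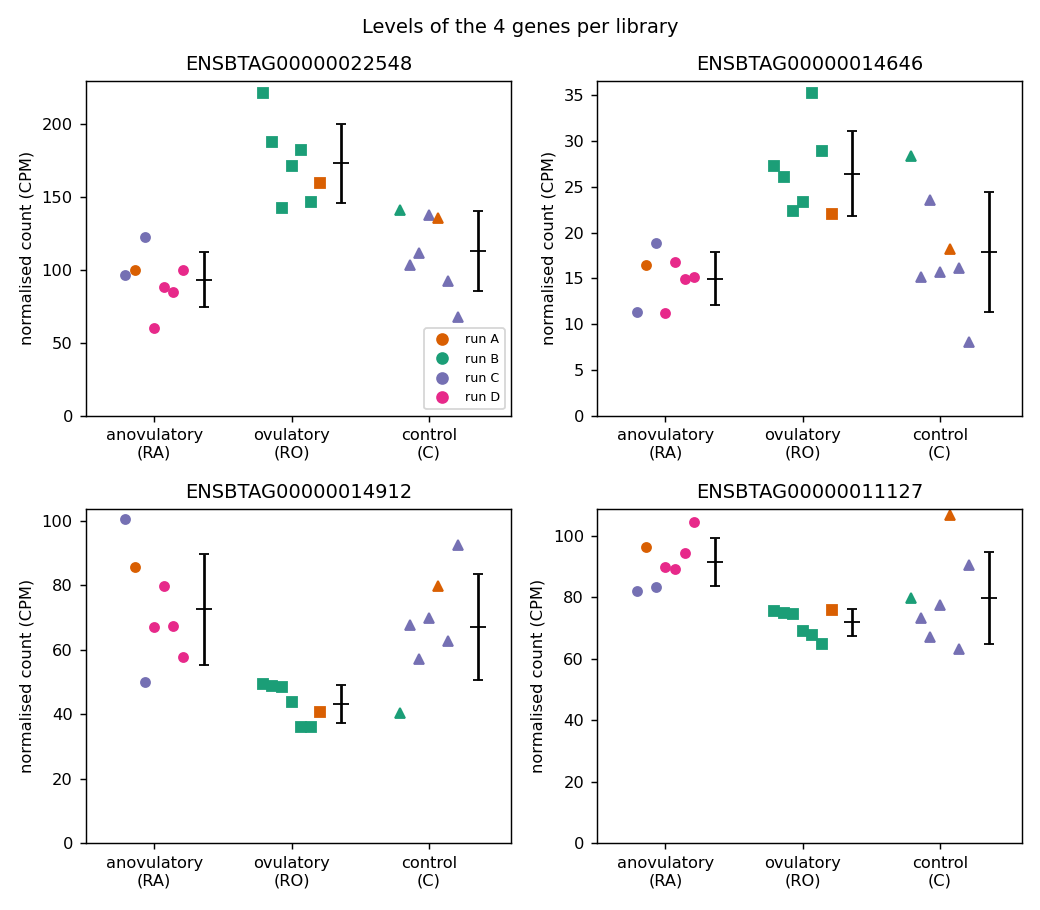
Normalised count (CPM, linear axis from 0) of the 4 genes in each library, by group; circles are RA, squares RO and triangles control libraries, colours give the run, and black bars show the mean ± SD (n = 7). RA and RO do not overlap in any panel. For ENSBTAG00000022548 every control lies below the RO range, and for the other genes controls reach into the ranges of both. The run B control lies inside the RO range for ENSBTAG00000014646, as a run C control does, and for ENSBTAG00000014912. It lies outside the RO range for the other 2 genes.

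Of the 13202 genes tested, edgeR's test called 1 at the adjusted threshold of 0.05, or 0.00757%. Differences without that support were frequent. An unadjusted p under 0.05 was reached by 2941 genes, 22.3% of those tested, of which 1352 were at a higher and 1589 at a lower fitted level in RA. Upper-quartile scaling turned that balance to 1513 higher and 1445 lower. At the looser adjusted p of 0.1, edgeR's test listed 390 genes (2.95%), 106 on the higher side (0.803%) and 284 on the lower side in RA (2.15%). The length of that list depended on some settings. It was 376 to 451 genes with the other scalings, a stricter filter, limma-voom or all 21 libraries in the fit. It came to 185 genes, 22 higher and 163 lower, with the replicate number as a block. With no filter on low counts, where 18755 genes were tested, it came to 1 gene. There the named genes other than ENSBTAG00000022548 shared an edgeR adjusted p of 0.107, just above the limit, against 0.0879 in the main fit. DESeq2 called 612 of the 12434 genes to which it gave an adjusted p (4.92%), 159 higher and 453 lower. The edgeR list at 0.1 and the DESeq2 list shared 370 genes, 94.9% of the former and 60.5% of the latter.

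The differences were small. Over all tested genes the median absolute log2 fold change was 0.14. For the 390 genes it was 0.44, or 1.35-fold, with a range of 0.15 to 1.49. A fitted difference above 2-fold was seen for 58 genes, 43 at a higher and 15 at a lower level in RA, and 51 of the 58 were among the 3301 genes with the fewest reads. Of the 58, 12 were among the 390. No gene was detected in all 7 libraries of one group and in none of the other. RA and RO did not overlap for 82 genes (0.621%), with 26 higher (0.197%) and 56 lower in RA (0.424%), and 60 of the 82 were among the 390.

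**Figure D2:**
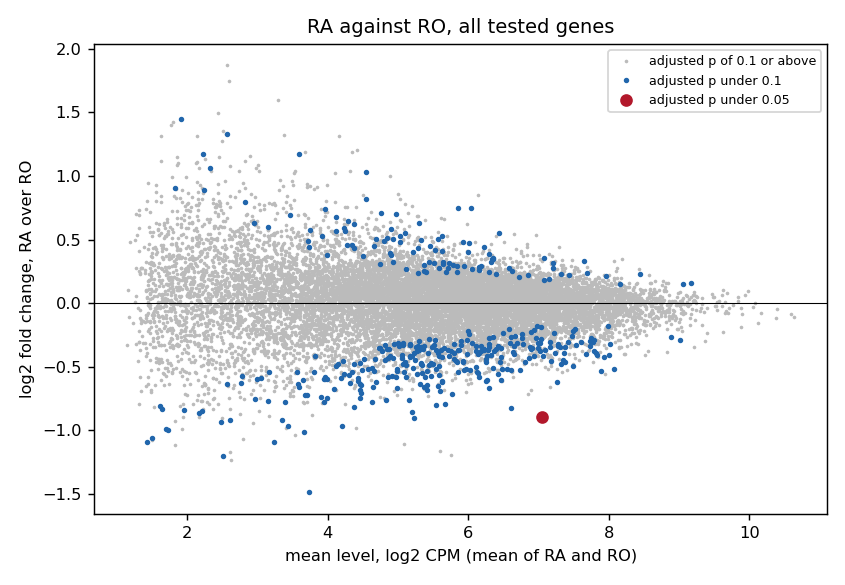
Log2 fold change of RA over RO against the mean level (log2 CPM) of each of the 13202 tested genes; blue points are the 390 genes with an edgeR adjusted p under 0.1 and the red point is ENSBTAG00000022548. More of the blue points lie below 0 (284) than above it (106), and the largest fold changes belong to genes with low levels.

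The standard error of the fold change was smaller for classes of genes with more reads. The tested genes were ordered by mean count and divided into 4 classes of equal size. The lowest class (median 32.3 reads per library) had a median SE of 0.21 on the log2 scale and the highest (median 612.9 reads) one of 0.080. The 95% interval of the fold change lay within 1.5-fold in either direction for 35.2% of the lowest class and for 93.8% of the highest. Over all genes it did so for 72.1%, and within 2-fold for 93.2%. An unadjusted p under 0.05 was reached by 16.7% of the genes in the lowest class, 23.7% in the second, 25.7% in the third and 23.1% in the highest. Genes with the most reads thus did not hold the largest share of low p-values. The fit behind these intervals has no term for run.

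The libraries of each group were not uniform. On the first principal component of the 14 libraries, which held 26.7% of the variance of log2 CPM, RO replicates 5 and 6 had the highest scores, 39.2 and 25.6, followed by RO replicate 7. RA replicates 6 and 7 had the lowest, -30.6 and -29.1. The other 9 libraries fell between -15.6 and 10.2, with both groups mixed. The biological coefficient of variation, the spread between libraries beyond counting error, was 17.1% in RA and 16.5% in RO. In the 4 RA libraries of run D it was 18.4%, in the 3 of runs A and C 12.4% and in the 6 RO libraries of run B 16.5%.

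To show where each library lay on the RA and RO difference, the mean log2 CPM difference from the RO mean was taken over the 390 genes, each signed by its direction and divided by the mean gap between the groups, so that the RO mean is 0 and the RA mean is 1. The genes were chosen on the RA and RO libraries, which fixes the separation of those 14. RA libraries ran from 0.601 (replicate 3) to 1.31 (replicate 4), with a median of 0.932. RO libraries ran from -0.537 (replicate 5) to 0.460 (replicate 4), with a median of 0.0631. The nearest pair across the groups was therefore RA replicate 3 and RO replicate 4. By run, the 4 RA libraries of run D averaged 1.13 ± 0.168 (SD, n = 4) and the 3 of runs A and C 0.821 ± 0.191 (SD, n = 3). In run A the RA library stood at 0.931 and the RO library at -0.160.

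The controls had no part in choosing these genes, apart from the scaling. They averaged 0.498 ± 0.405 (SD, n = 7) and ranged from near the RO mean to beyond the RA mean. The scale runs between the RO and RA means of genes picked for that gap. A control mean between those means can follow from this choice, and whether it does was not tested. Control replicate 1, the control of run B, stood at 0.0617, near the mean of the RO libraries, 6 of which shared its run. Control replicate 5 of run A stood at 0.481. Of the 5 controls in run C, replicates 2, 3, 4 and 6 stood between 0.259 and 0.562. Control replicate 7 stood at 1.34, beyond all 7 RA libraries, although its label is that of a well-fed heifer that ovulated. The 5 controls of run C thus differed among themselves by more than the gap between the RA and RO means. The control positions moved by at most 0.110 when the 2941 genes with an unadjusted p under 0.05 were used in place of the 390. Replicate 1 then stood at 0.0621 and replicate 7 at 1.28. The 2941 include the 390 and come from the same test, so this shift is not an independent check. The part of run in the RA and RO difference was not tested by these values.

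**Figure D3:**
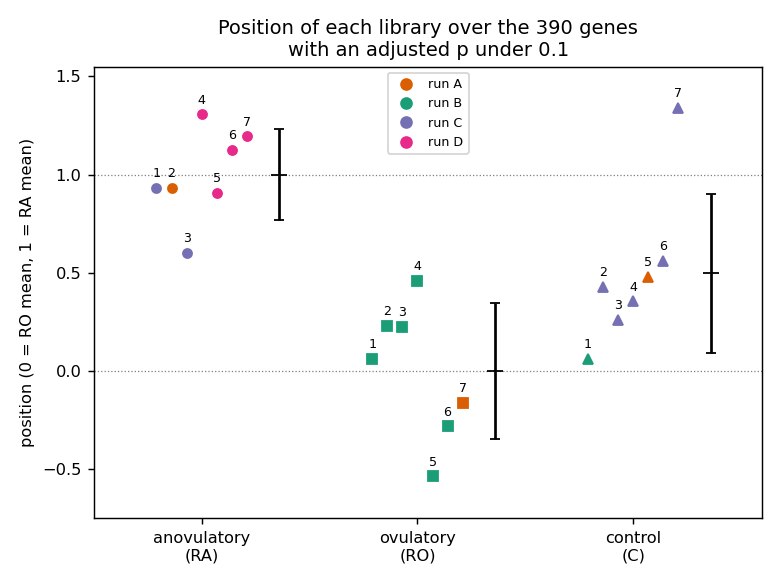
Position of each library (unitless, 0 = RO mean, 1 = RA mean) over the 390 genes with an edgeR adjusted p under 0.1; numbers are replicates, colours runs, and black bars the mean ± SD (n = 7). The RA and RO separation follows from the choice of genes. The control points range from 0.0617 for replicate 1 to 1.34 for replicate 7. Controls did not enter that choice, apart from the scaling, but a control mean between RO and RA can follow from it.

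Fits that divided the RA libraries by run, or held a term for run, differed in their number of low p-values. With the 4 RA libraries of run D set against RO, 3038 genes had an unadjusted p under 0.05 (23.0%) and 0 passed an adjusted 0.05 in edgeR's test, the smallest adjusted p being 0.0778. With the 3 RA libraries of the earlier runs (A and C) set against RO, 881 genes did (6.67%), and 0 passed (smallest edgeR adjusted p 0.697). The median absolute log2 fold change was 0.18 in the former and 0.12 in the latter, and the median SE was 0.14 in the former and 0.15 in the latter. Both fits use the same RO libraries, 6 of them from run B, which held no RA library. Neither fit therefore takes run out of the group difference. They differ in the RA libraries they hold, in their number and in the spread among them, so the 2 counts are not directly comparable. Tested directly inside RA, the difference between the libraries of run D and the others gave 0 of 13380 genes (0%) at an edgeR adjusted p of 0.05 (smallest 0.600), 1049 genes at an unadjusted p under 0.05 (7.84%) and 11 genes in DESeq2 (0.0824% of 13354). It too turned on single libraries: edgeR's test called 63 genes at an adjusted 0.05 once RA replicate 4 was left out. In that fit 2042 of the 13380 genes (15.3%) had a low unadjusted p (under 0.05). With RA replicate 3 left out, 0 genes passed and 480 (3.59%) had a low unadjusted p. With a covariate for run in the 14 libraries, 759 genes (5.75%) had an unadjusted p under 0.05. In that fit 1 gene passed in edgeR's test, higher in RA and other than ENSBTAG00000022548. With run in the fit to all 21 libraries, 275 genes (2.08%) had an unadjusted p under 0.05 and 0 passed (smallest edgeR adjusted p 0.9998). The median SE was 0.31 in the former and 0.22 in the latter, against 0.12 without run.

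Single libraries decided the number of genes called. Without RO replicate 4, the RO library nearest to RA in position, edgeR's test called 467 genes at an adjusted p of 0.05, 104 higher and 363 lower in RA, and 304 of them were among the 390. Without RA replicate 3, the RA library nearest to RO, it called 5 genes. These positions come from genes chosen by the same test, so setting them beside the counts is a description. It called 1 gene without RA replicate 4 or RO replicate 3, and 0 without any one of the other 10 libraries. Over the 14 fits that each left out 1 library, the number with an unadjusted p under 0.05 ran from 2050 without RO replicate 5 to 3691 without RO replicate 4. The number under an adjusted p of 0.1 was as unstable as the calls. It was 0 without RA replicate 1, 2, 5, 6 or 7 or RO replicate 5, and 1 without RA replicate 4 or RO replicate 3, 6 or 7. Without RO replicate 2, RO replicate 1, RA replicate 3 and RO replicate 4 it was 588, 820, 1103 and 1900. Genes can share an adjusted p after Benjamini-Hochberg adjustment and then cross a limit together. The named genes other than ENSBTAG00000022548 shared an edgeR adjusted p of 0.0879 with all 14 libraries and of 0.119 without RA replicate 5. These jumps are therefore larger than the changes in the p-values behind them. The call of ENSBTAG00000022548 was lost in 10 of the 14 fits, with log2 fold changes from -0.97 to -0.81 and edgeR adjusted p-values from 0.0139 to 0.147.

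**Figure D4:**
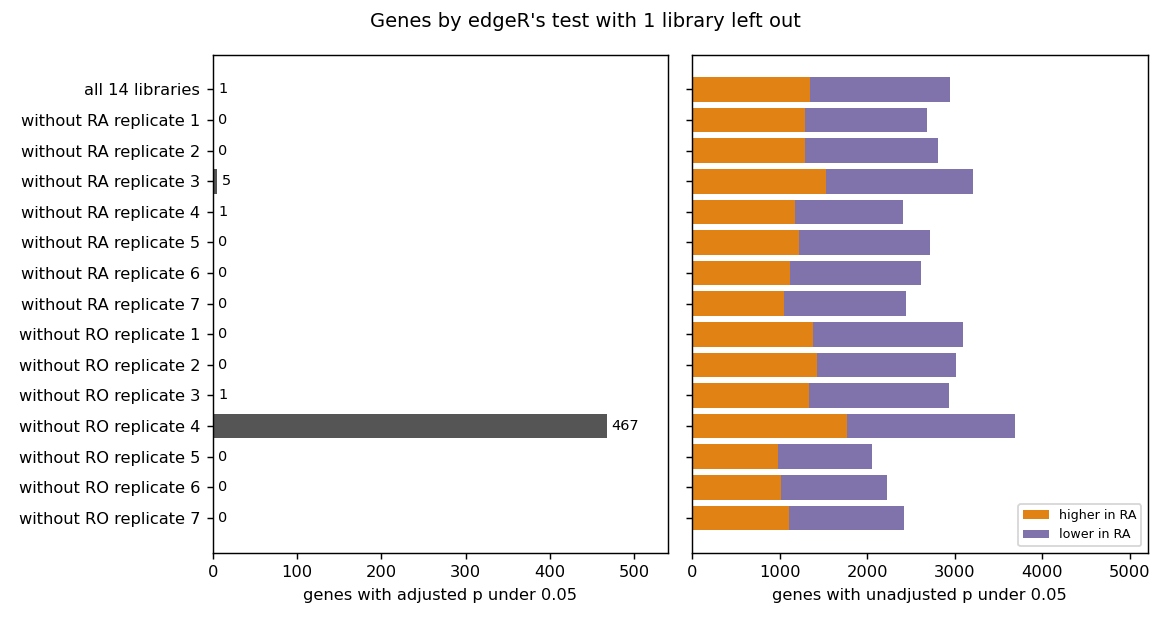
Number of genes with an edgeR adjusted p under 0.05 (left) and an unadjusted p under 0.05, divided into genes higher and lower in RA (right), with all 14 libraries and with each library left out. The count of called genes is 467 without RO replicate 4 and at most 5 in every other fit shown.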

How the data were processed

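The authors deposited 1 table of raw read counts per gene for each library, not normalized and without entries for unassigned reads. Libraries were single-read and polyA-selected, per the labels' protocols. CASAVA 1.4, Bowtie, SAMtools and HTSeq were used, per the submitters' processing notes, which give no roles or settings. Strandedness, the handling of duplicates, the genome build and the annotation were not given in the sources used here. How reads of overlapping, antisense or near-identical genes were counted is thus not known here.

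Here, genes were kept by edgeR's filterByExpr on the 14 RA and RO libraries (minimum count 10, minimum total 15), leaving 13202 genes with 99.6% to 99.8% of each library's counts and a median count of 176. TMM factors came from all 21 libraries, so that CPM of controls stand on the same scale. RA and RO were compared with edgeR 4.0.16 (R 4.3.3), robust quasi-likelihood test, on the 14 libraries, with Benjamini-Hochberg adjustment over all tested genes and a threshold of 0.05. Standard errors are the log2 fold change over the square root of F. Log2 CPM used a prior count of 2. Alternatives were other scalings, filters, DESeq2 1.42.0, limma-voom 3.58.1 with quality weights, run, replicate block and each library left out. The test was checked on simulated counts.

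The genes named are the 2 with the smallest p in each direction, since no identifier had a symbol. For the same reason 37 lists of pathway genes and cell type markers were not tested. Comparison, lists and tests were chosen with earlier results of these data known. Replicate numbers did not pair the libraries: deviations of same-numbered RA and RO libraries correlated by -0.0054 on average over 7 pairs, with 1 pair over 0.1. No 2 of the 14 libraries agreed within sampling noise (the chi-square of their counts, over its degrees of freedom, was at least 2.19 in 91 pairs).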

Additional observations from a re-analysis of the deposited data

Results flagged for a closer look

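Of 24 sets of 7 values examined for a library far from the rest, 3 stood out, all among the controls; chance picks out about 1 in 20 such sets. Control replicate 7 had a position of 1.34 between the RO mean (0) and the RA mean (1) over the 390 genes, against 0.0617 to 0.562 in the other controls. Its values for the 4 genes were 67.5, 8.003, 92.3 and 90.4 CPM (ENSBTAG00000022548, ENSBTAG00000014646, ENSBTAG00000014912 and ENSBTAG00000011127), each on the RA side of the RO range. Its total of 3698427 counts was the lowest of the controls and close to the 3703052 of RA replicate 2. Its mean correlation across tested genes was 0.972 with the RA libraries, 0.959 with the other controls and 0.958 with the RO libraries. A higher mean with RA than with the other controls was not particular to it. Control replicates 1, 2, 4 and 6 showed this too, replicate 6 at 0.974 against 0.968, and replicates 3 and 5 did not.

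Control replicate 5 correlated with the rest of its group at a mean of 0.929, where the other 6 controls had 0.957 to 0.968. Its 10 most abundant genes took 1.12% of its counts, and those of the other 6 took 1.23% to 1.29%. Neither library entered the test of RA against RO, except through the scaling.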

How the results depend on the processing

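The number of genes called between RA and RO was 1 under TMM over the 14 libraries, RLE and upper-quartile scaling, both filters and limma-voom, the same gene each time. It was 0 with all 21 libraries, with RA restricted to runs A and C, with RA restricted to run D and with run in a fit to all 21 libraries. That last fit was chosen after seeing the data. It was 612 with DESeq2 and 390 at an adjusted p of 0.1. Leaving out 1 library gave 0 to 467 genes. With the replicate block it was 0, with 3075 genes under an unadjusted 0.05. Apart from that fit, 1 of 7 RA libraries correlated best, in deviations from the group mean, with the RO library of its own number. Inside RA, the difference between runs came to 11 genes in DESeq2 and to 0 to 63 when single libraries were left out, with 63 without RA replicate 4 and 0 without any other. For these counts, the cause was not tested. All 4 named genes kept their sign in 27 of 27 alternative fits. They were picked by p-value on libraries that these fits reuse, and RA and RO did not overlap for any of them. The kept sign is therefore a description. The log2 fold change ran from -1.05 to -0.40 for ENSBTAG00000022548 and from -0.88 to -0.20 for ENSBTAG00000014646. Both were smallest with run in the fit to all 21 libraries. For ENSBTAG00000014912 and ENSBTAG00000011127 it ran from 0.55 to 1.07 and from 0.28 to 0.40. ENSBTAG00000022548 passed in 11 of the 27, with adjusted p-values from 3.93e-07 in DESeq2 to 0.9998. A fit within run A was not made, since it holds 1 library of each group.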
